A study of Homo sapiens with 30 samples.

Results

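The enzymes described here make, balance or remove the deoxynucleotides from which DNA is copied: RRM1, RRM2, TYMS, TK1, DUT, DCK, IMPDH2, CTPS1 and SAMHD1. Every probe set that the platform annotation assigns to 1 of these symbols alone was taken, which gave 14 probe sets for 9 genes, of 22283 probe sets and 11963 named genes in all. Messenger RNA had been measured on 30 Affymetrix arrays in the lymphoblastoid lines GM15036 and GM15510, human B cells immortalised with Epstein-Barr virus. Each line was irradiated in suspension culture with a caesium 137 source at 1, 2.5, 5, 7.5 or 10 cGy, with 3 arrays for each of the 10 groups. Doses follow the sample labels, which use cGy, although the series' design text writes identical numbers as Gy. An unirradiated group was not analysed here. Each higher dose was therefore set against the 1 cGy arrays of its own line, which all dose comparisons in that line share. The sources used here do not state how long after irradiation the RNA was taken. The labels do not state whether the triplicate arrays came from separate cultures, and p-values therefore measure only the spread between arrays, which may be technical. Each line stands for 1 cell line, so a difference between GM15036 and GM15510 is a difference between these lines.

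Ribonucleotide reductase converts ribonucleotides into deoxynucleotides and is the committed step of their supply. It is built from a large catalytic and regulatory subunit, RRM1, and a small radical-carrying subunit, RRM2, whose level rises in S phase of dividing cells. TYMS makes thymidylate from deoxyuridylate, DUT hydrolyses dUTP so that uracil stays out of DNA, and TK1 and DCK phosphorylate salvaged thymidine and other deoxynucleosides. IMPDH2 and CTPS1 hold control points upstream, in guanine nucleotide and CTP synthesis, and both serve proliferating lymphocytes. SAMHD1 works the other way, since it breaks deoxynucleotides down. Lymphoblastoid lines divide in culture, so these genes are in use in them without any added stimulus.

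RefSeq promoter windows on GRCh38.p14, from 250 bases before to 50 bases after a start, were matched for 8 of the 9 genes, in 14 windows. They are shown for RRM1 and RRM2, which form 1 enzyme, and for TYMS. At 10 cGy in GM15036 both RRM1 probe sets and RRM2 209773_s_at were called lower, and RRM2 201890_at was not (change 0.13). The tested TYMS probe set passed in no dose comparison under the scaling used here. Capitals mark CCAAT, the box bound by NF-Y, and 4 E2F type motifs, which factors of G1/S control bind, all searched on both strands. For RRM2 the first of its pair of listed windows is given. The windows lie at chr11:4094435-4094734 (RRM1), chr2:10122489-10122788 (RRM2) and chr18:657403-657702 (TYMS), all on the plus strand.
RRM1: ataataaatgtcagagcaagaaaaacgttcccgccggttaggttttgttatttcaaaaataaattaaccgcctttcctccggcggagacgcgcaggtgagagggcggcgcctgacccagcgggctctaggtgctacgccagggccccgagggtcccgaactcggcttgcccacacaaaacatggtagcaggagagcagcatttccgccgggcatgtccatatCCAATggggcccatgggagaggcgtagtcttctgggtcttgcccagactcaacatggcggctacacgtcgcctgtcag
RRM2: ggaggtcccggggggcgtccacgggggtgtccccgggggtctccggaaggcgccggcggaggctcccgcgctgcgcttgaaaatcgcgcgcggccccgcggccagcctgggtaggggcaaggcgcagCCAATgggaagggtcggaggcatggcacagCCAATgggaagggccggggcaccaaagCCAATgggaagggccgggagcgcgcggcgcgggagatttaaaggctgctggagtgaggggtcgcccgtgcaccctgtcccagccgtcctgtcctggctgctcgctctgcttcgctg
TYMS: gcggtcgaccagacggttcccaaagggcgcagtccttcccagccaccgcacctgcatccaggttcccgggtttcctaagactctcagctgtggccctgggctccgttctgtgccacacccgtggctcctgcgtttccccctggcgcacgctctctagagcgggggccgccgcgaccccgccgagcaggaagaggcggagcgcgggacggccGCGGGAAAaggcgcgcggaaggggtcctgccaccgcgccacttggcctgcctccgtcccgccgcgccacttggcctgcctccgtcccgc
The RRM2 window held CCAAT at -123, -93 and -66 from the start, counting from its first base, and the RRM1 window held CCAAT at -28. The TYMS window held an E2F type motif on the opposite strand at -39 and no CCAAT. Of all 35116 RefSeq promoter windows, 34.6% held CCAAT, 3.31% an E2F type motif (TTTCCCGC, TTTGGCGC, TTTCGCGC or TTTGCCGC) and 45% the GC box GGGCGG. Partial overlaps between motifs were not removed. Among the 8 matched genes, 4 held CCAAT (RRM1, RRM2, SAMHD1 and TK1), 3 an E2F type motif (DCK, DUT and TYMS) and 6 a GC box (CTPS1, DCK, DUT, RRM1, RRM2 and TK1). No matched gene held both CCAAT and an E2F type motif in its windows. The matches describe letters in a window and are no evidence of binding.

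The unscaled arrays differed 7.91-fold in brightness, the trimmed mean of the signal, and were scaled to a common 50.9 before any comparison. Brightness differed between doses: in GM15036 it averaged 69.6 ± 10.2, 49.8 ± 6.12, 51.3 ± 3.47, 32.4 ± 4.73 and 22.1 ± 10.4 at 1, 2.5, 5, 7.5 and 10 cGy (SD, n = 3 each). In GM15510 it averaged 69.4 ± 10.5, 18.7 ± 4.48, 39.0 ± 26.6, 67.7 ± 21.7 and 89.1 ± 23.6 at the same doses. The log2 ratio of 3-prime to 5-prime GAPDH control signal, a sign of RNA quality, averaged 2.45 to 2.80 over the groups of GM15036 and 2.25 to 2.45 over those of GM15510. It was 2.80 ± 0.112 at 10 cGy against 2.49 ± 0.168 at 1 cGy in GM15036, the comparison with most member calls between doses. The same ratio for ACTB was 4.98 ± 0.131 at 10 cGy against 4.22 ± 0.176 at 1 cGy in GM15036, and 4.94 ± 0.111 against 3.58 ± 0.508 in GM15510 (SD, n = 3 each). At 2.5, 5 and 7.5 cGy the ACTB ratio averaged 5.18, 4.8 and 5.15 in GM15036 and 4.12, 4.58 and 3.59 in GM15510. The part of these ratios in the dose results was not tested. The B cell identity of the lines was seen in 9 of 9 measured markers above the filter on dim probe sets, with a summed signal of 1650 to 2370 per array. Monocyte markers were above the filter for 0 of 6 genes (summed signal 9.34 to 49.1), T and NK cell markers for 1 of 7 (CD3E; 26.5 to 86.5), erythroid markers for 1 of 2 (HBB; 3.92 to 26.7) and fibroblast markers for 3 of 5 (COL1A1, COL1A2 and FN1; 27.9 to 107). In bulk samples, fewer cells of a type and less RNA per cell cannot be told apart. Of the 14 member probe sets, 13 passed the filter and were tested. The exception was TYMS 217684_at, with signals of 1.75 to 20.5 in GM15036 and 1.2 to 16.4 in GM15510.

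At 10 cGy in GM15036, probe sets of RRM1, RRM2, IMPDH2 and CTPS1 were lower than at 1 cGy, with changes of -0.95 to -0.30 on the log2 scale, and none was called higher. In limma's test with Benjamini-Hochberg adjustment over 13331 probe sets, at a threshold of 0.05, 5 of 13 member probe sets were called, all lower, where 7.35% of all tested probe sets were called lower. The median change of the 13 was -0.26, against 0.030 over all tested probe sets, and 10 of the 13 changes were negative. At the 3 lower doses of GM15036 limma called 0 member probe sets, and an unadjusted p under 0.05 was met by 0 at 2.5 cGy, 0 at 5 cGy and 3 at 7.5 cGy. By adjusted p, 0.548%, 0.143% and 3.22% of all tested probe sets were called in those comparisons. These shares do not match the unadjusted counts, for which no share of all tested probe sets is given. The groups with the fallen probe sets were also the brightest and the dimmest of the line, and with log2 brightness as a covariate 1 of the 5 calls was kept, that of RRM2 209773_s_at. The number of member calls was 3, 1 and 3 without replicate a, b or c at 1 cGy, and 2 without replicate a or b at 10 cGy.

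In GM15510 single probe sets were called and their directions differed by dose. Limma called 1 member probe set higher at 2.5 cGy (RRM2), where 3.92% of all were higher, and 1 higher at 5 cGy (RRM2), where 2.08% were. It called 0 at 7.5 cGy, where 1.79% of all were called, and 1 lower at 10 cGy (DUT), where 2.82% were lower. At 7.5 cGy 2 members had an unadjusted p under 0.05, for which no share of all tested probe sets is given. The median member changes were -0.08, -0.04, -0.06 and -0.18 from 2.5 to 10 cGy, and those of all tested probe sets were -0.011, -0.006, -0.009 and -0.005. When unscaled arrays were centred on their medians instead, the median change of all tested probe sets was -0.50 at 2.5 cGy and 0 members were higher and 11 lower. That centring shifted the median of all tested probe sets by -0.38 at 10 cGy in GM15036 and by -0.29 at 5 cGy in GM15510, so dose changes are relative to the scaling. At 10 cGy in GM15036, 585 of all tested probe sets were called higher and 980 lower, against 74 and 4251 with that centring, and at 2.5 cGy in GM15510 the counts were 523 and 742, against 74 and 5618.

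**Figure D1:**
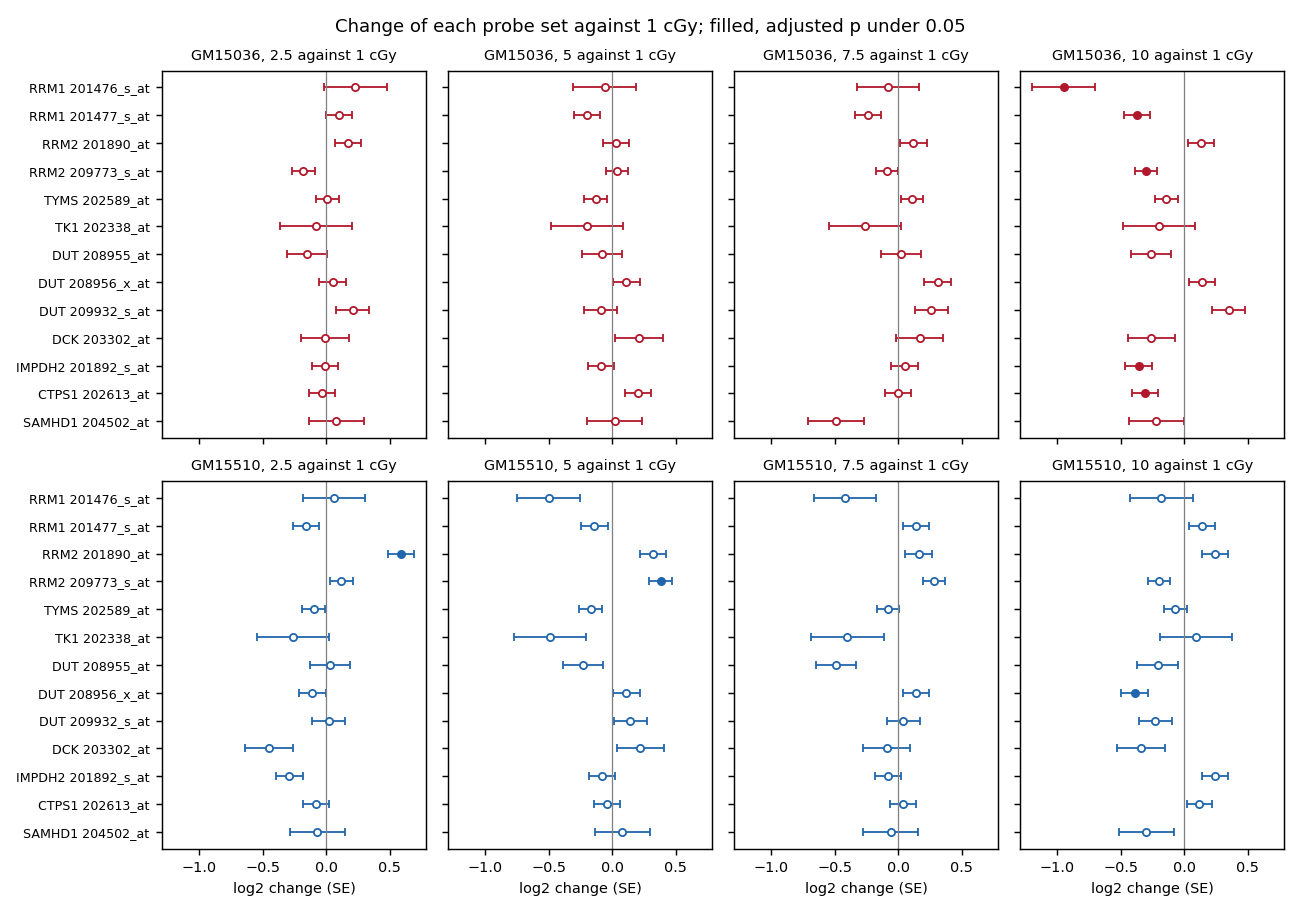
Log2 change of each tested member probe set at 2.5, 5, 7.5 and 10 cGy against 1 cGy, with GM15036 in the upper row and GM15510 in the lower row. Points are limma estimates, bars their SE, and filled points have an adjusted p under 0.05: 5 lower at 10 cGy in GM15036, and 1 each at 2.5, 5 and 10 cGy in GM15510.

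RRM1 fell at 10 cGy in GM15036 on both of its probe sets, and its means were lower in GM15036 than in GM15510 at every dose. The gene lies on chromosome 11 (4094685 to 4138932, GRCh38.p14). Probe set 201476_s_at had scaled signals of 24.0, 8.08 and 13.6 at 10 cGy in GM15036, against 31.2, 30.9 and 31.0 at 1 cGy. All 3 arrays at 10 cGy were below all 3 at 1 cGy, and replicate b was the lowest. The change was -0.95 (SE 0.246, limma adjusted p = 0.00851), or 0.52 times, on the log2(signal + 4) scale, and -0.66 (adjusted p = 0.097) without replicate b at 10 cGy. Probe set 201477_s_at had 697, 654 and 724 at 10 cGy, against 798, 951 and 950 at 1 cGy. The groups did not overlap here either, and the change was -0.37 (SE 0.103, limma adjusted p = 0.0140). This call was lost without replicate b (adjusted p = 0.0771) or c (0.0704) at 1 cGy, or b at 10 cGy (0.0673). With log2 brightness as a covariate the changes were -0.89 (adjusted p = 0.221) and -0.26 (0.439).

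Over the 5 doses of GM15036 the F test of any difference was passed by both RRM1 probe sets, 201476_s_at (adjusted p = 0.00582, limma) and 201477_s_at (0.00613). For 201476_s_at it was not passed without replicate b at 10 cGy (0.114). The group means of 201477_s_at were 9.81, 9.91, 9.62, 9.57 and 9.44 from 1 to 10 cGy, all on the log2 scale, and the lowest stood at the highest dose. In GM15510 its means were 10.12, 9.96, 9.98, 10.26 and 10.26, with an F test at the threshold (adjusted p = 0.0499). That call was kept on leaving out each of 6 of the 30 arrays and lost on leaving out each of the other 24 (adjusted p 0.0502 to 0.111). The dose pattern of 201477_s_at differed between the lines (interaction adjusted p = 0.000965), as the difference itself was tested. The interaction had an adjusted p of 0.411 with brightness as a covariate and 0.0591 without the 5 dimmest arrays. For 201476_s_at the interaction missed the threshold (0.0569).

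RRM2 gave opposite line differences on its pair of probe sets. The gene lies on chromosome 2 (10122568 to 10211010, GRCh38.p14). Probe set 201890_at ranged over 1940 to 2540 in GM15036 (median 2390) and 1150 to 2250 in GM15510 (median 1650), and GM15036 was higher by 0.51 on the log2 scale (SE 0.047, limma adjusted p = 5.18e-11). Probe set 209773_s_at ranged over 932 to 1380 in GM15036 (median 1230) and 1490 to 2430 in GM15510 (median 1960), and GM15036 was lower, with a difference of -0.71 (SE 0.039, limma adjusted p = 2.29e-16). For each probe set the arrays of the lines did not overlap at 5 of 5 doses. Both calls held under all 12 alternatives that test the line difference and on leaving out each of the 30 arrays. Within an array the log2 value of 201890_at minus that of 209773_s_at ran from 0.65 to 1.34 (median 0.96) in the 15 arrays of GM15036 and from -0.58 to 0.20 (median -0.29) in the 15 of GM15510. The lines did not overlap in this within-array difference, which no scaling factor common to an array moves much at these signals. The annotation gives RRM2 alone for both probe sets, the suffix _s_at marks probes shared by several transcripts, and the direction of the RRM2 gene as a whole between the lines is therefore not settled by these data.

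RRM2 also changed with dose. In each comparison of a single dose with 1 cGy that called it, 1 of its probe sets passed and the other did not. At 10 cGy in GM15036, 209773_s_at had 974, 1230 and 932, against 1302, 1301 and 1235 at 1 cGy. All arrays at 10 cGy were below those at 1 cGy, replicate b by little, and the change was -0.30 (SE 0.0879, limma adjusted p = 0.0207). The call was lost without replicate a (adjusted p = 0.0633) or b (0.0743) at 1 cGy, or a (0.104) or c (0.132) at 10 cGy. In the same comparison 201890_at had 2477, 2522 and 2309 at 10 cGy, against 2544, 2255 and 1936 at 1 cGy, with a change of 0.13 that did not pass (adjusted p = 0.509). At 2.5 cGy in GM15510, 201890_at rose by 0.59 (SE 0.104, limma adjusted p = 0.000302), with 2027, 2009 and 2247 at 2.5 cGy against 1410, 1645 and 1153 at 1 cGy. The arrays did not overlap, and every array left out kept the call. The arrays at 2.5 cGy were the dimmest group, and the change was 0.26 (adjusted p = 0.466) with brightness as a covariate and -0.19 (adjusted p = 0.332) with median centring of unscaled arrays.

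At 5 cGy in GM15510, RRM2 209773_s_at had 2426, 2302 and 2277, against 1781, 1889 and 1722 at 1 cGy. It rose by 0.38 (SE 0.0879, limma adjusted p = 0.00883), a call lost without replicate 3 at 1 cGy (0.0612) and with brightness as a covariate (0.25, adjusted p = 0.205), and with a value of -0.04 under median centring of unscaled arrays. Its values at 10 cGy were the lowest of the line at 1489, 1519 and 1697, with a change against 1 cGy of -0.20 that did not pass (adjusted p = 0.232). This was the member with the strongest evidence of any dose difference in GM15510 (F test adjusted p = 6.93e-05, kept under all 13 alternatives and all 30 omissions of an array). RRM2 201890_at passed that test as well (0.00113), in all 30 omissions but in only 9 of 13 alternatives. Its call was lost with median centring of unscaled or scaled arrays and with brightness as a covariate, among others. In GM15036 the F test was passed by 209773_s_at (0.0276), except without replicate a at 5 cGy or replicate a or c at 10 cGy (0.0739 to 0.132), and not by 201890_at (0.699). Neither probe set passed the line by dose interaction (0.126 and 0.0825).

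**Figure D2:**
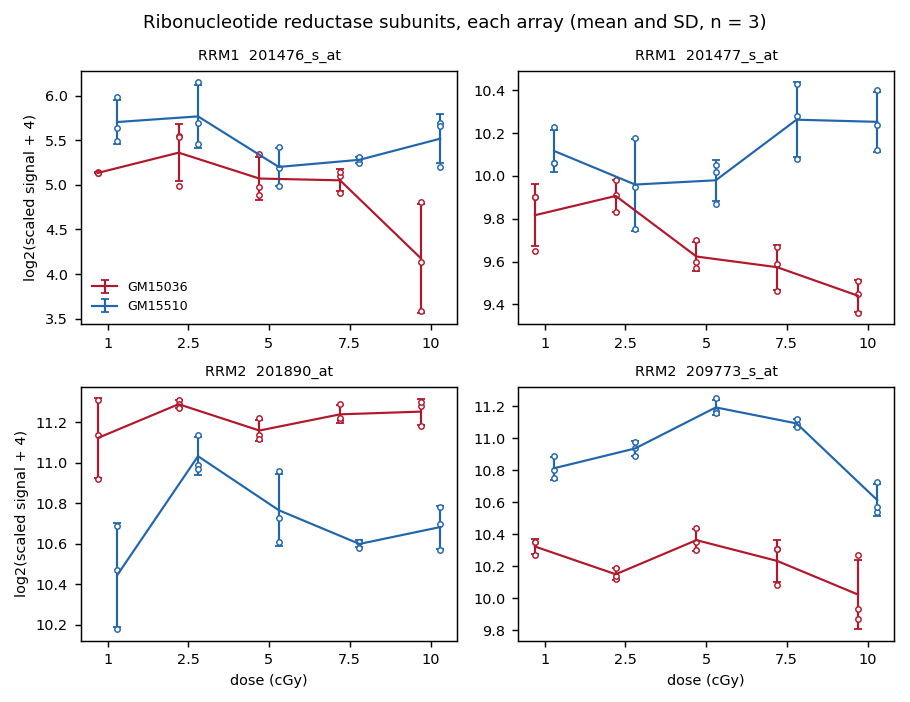
Scaled signal on the log2(signal + 4) scale for the probe sets of RRM1 and RRM2 at each dose in cGy; points are arrays, lines join group means and bars are SD (n = 3). GM15036 lies above GM15510 on RRM2 201890_at and below it on 209773_s_at at all 5 doses, and RRM1 201476_s_at is lowest at 10 cGy in GM15036.

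TYMS, the thymidylate synthase (chromosome 18, 657653 to 673578), passed in no test under the scaling used here. It had signals of 600 to 874 on 202589_at in GM15036 (median 709) and 660 to 826 in GM15510 (median 761). Its group means spanned 0.25 on the log2 scale over the doses of GM15036 and 0.17 over those of GM15510. The 10 cGy change was -0.14 in GM15036 (limma adjusted p = 0.369) and -0.07 in GM15510 (0.80), and the line difference was -0.08 (SE 0.04, adjusted p = 0.112). With each array centred on its median after scaling, TYMS passed at 10 cGy in GM15036 (-0.37, adjusted p = 0.0112), at 2.5 cGy in GM15510 (-0.37, 0.0119), in both F tests (0.0265 in GM15036 and 0.0223 in GM15510), in the interaction (0.0262) and between the lines (-0.19, 0.000914). Median centring of unscaled arrays gave these calls too, with -0.79 (0.000125) at 10 cGy in GM15036 and -0.87 (3.1e-05) for GM15510 at 2.5 cGy, and 1 more at 5 cGy in GM15510 (-0.58, 0.0109). TK1 (chromosome 17, 78174079 to 78187204), the S phase thymidine kinase, had a dim probe set and wide scatter. Its signals ran from 19.3 to 48.9 in GM15036 (median 37.5) and from 18.0 to 57.9 in GM15510 (median 45.1), and no test called it under the scaling used here. Median centring of unscaled arrays called it at 2.5 cGy (-0.79, adjusted p = 0.0206) and 5 cGy (-0.81, 0.0461) in GM15510, in the F test of GM15510 (0.009) and in the interaction (0.0446). The largest TK1 change was -0.49 (SE 0.284, adjusted p = 0.414) at 5 cGy in GM15510, so a change of that size was not detectable with these arrays as scaled.

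DUT (chromosome 15, 48331095 to 48343373) had 3 tested probe sets that differed in their dose patterns. Probe set 208956_x_at had 964, 875 and 861 at 10 cGy in GM15510, against 1294, 1104 and 1144 at 1 cGy. It fell by 0.39 (SE 0.106, limma adjusted p = 0.0221) with no overlap, a call lost without replicate 1 at 1 cGy (0.144) or replicate 2 (0.0817) or 3 (0.103) at 10 cGy. Its F test over the doses of GM15510 passed (adjusted p = 0.00186) and held under all 13 alternatives and all 30 omissions. In the same comparison 208955_at changed by -0.21 and 209932_s_at by -0.23, and neither passed (0.61 and 0.405). The suffix _x_at marks probes that can also bind other sequences, so 208956_x_at is the least specific of the 3.

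In GM15036 no DUT probe set passed in a dose comparison. Probe set 209932_s_at had 121, 124 and 119 at 10 cGy, against 92.4, 97.5 and 91.7 at 1 cGy, and the arrays did not overlap. Its change of 0.35 (SE 0.13) missed the threshold in limma's test (adjusted p = 0.0722), and passed with quantile normalization (0.42, adjusted p = 0.0294) and with the filter of 60 percent (0.35, adjusted p = 0.0494). The line by dose interaction was passed by 209932_s_at (0.0144) and by 208956_x_at (0.0436). The difference of the lines on 209932_s_at was 0.34 at 10 cGy and -0.47 at 5 cGy. For 208956_x_at it was 0.38 at 10 cGy and -0.15 at both 1 and 5 cGy. Each probe set therefore was higher in GM15036 at 10 cGy and lower at 5 cGy. The interaction of 208956_x_at was lost on leaving out each of 14 arrays (adjusted p 0.0503 to 0.186), namely GM15036 replicates b and c at 1 cGy, c at 2.5 cGy, a, b and c at 5 cGy and a at 10 cGy, and GM15510 replicates 1 and 3 at 1 cGy, 2b and 3 at 5 cGy, 2 at 7.5 cGy and 2 and 3 at 10 cGy. With brightness as a covariate the interaction had an adjusted p of 0.188 for 208956_x_at and 0.0784 for 209932_s_at.

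DCK (chromosome 4, 70993649 to 71030914), which phosphorylates deoxycytidine and also activates nucleoside drugs, was lower in GM15036 at every dose. Signals ran from 28.1 to 58.7 in GM15036 (median 40.4) and from 39.8 to 85.0 in GM15510 (median 60.6). The difference was -0.54 (SE 0.083, limma adjusted p = 1.98e-06), without overlap at 4 of 5 doses, and was called in every alternative and omission of an array. No dose passed against 1 cGy in either line. The F test passed in GM15510 (adjusted p = 0.0423), where the group means were 6.16, 5.71, 6.38, 6.06 and 5.82 from 1 to 10 cGy, lowest at 2.5 and highest at 5 cGy. That call was lost on leaving out each of 10 arrays (0.0503 to 0.112), GM15036 replicate b at 2.5 cGy and GM15510 replicates 1 and 2 at 1 cGy, 2 and 3 at 2.5 cGy, 2b and 3 at 5 cGy, 3 at 7.5 cGy and 1 and 3 at 10 cGy.

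**Figure D3:**
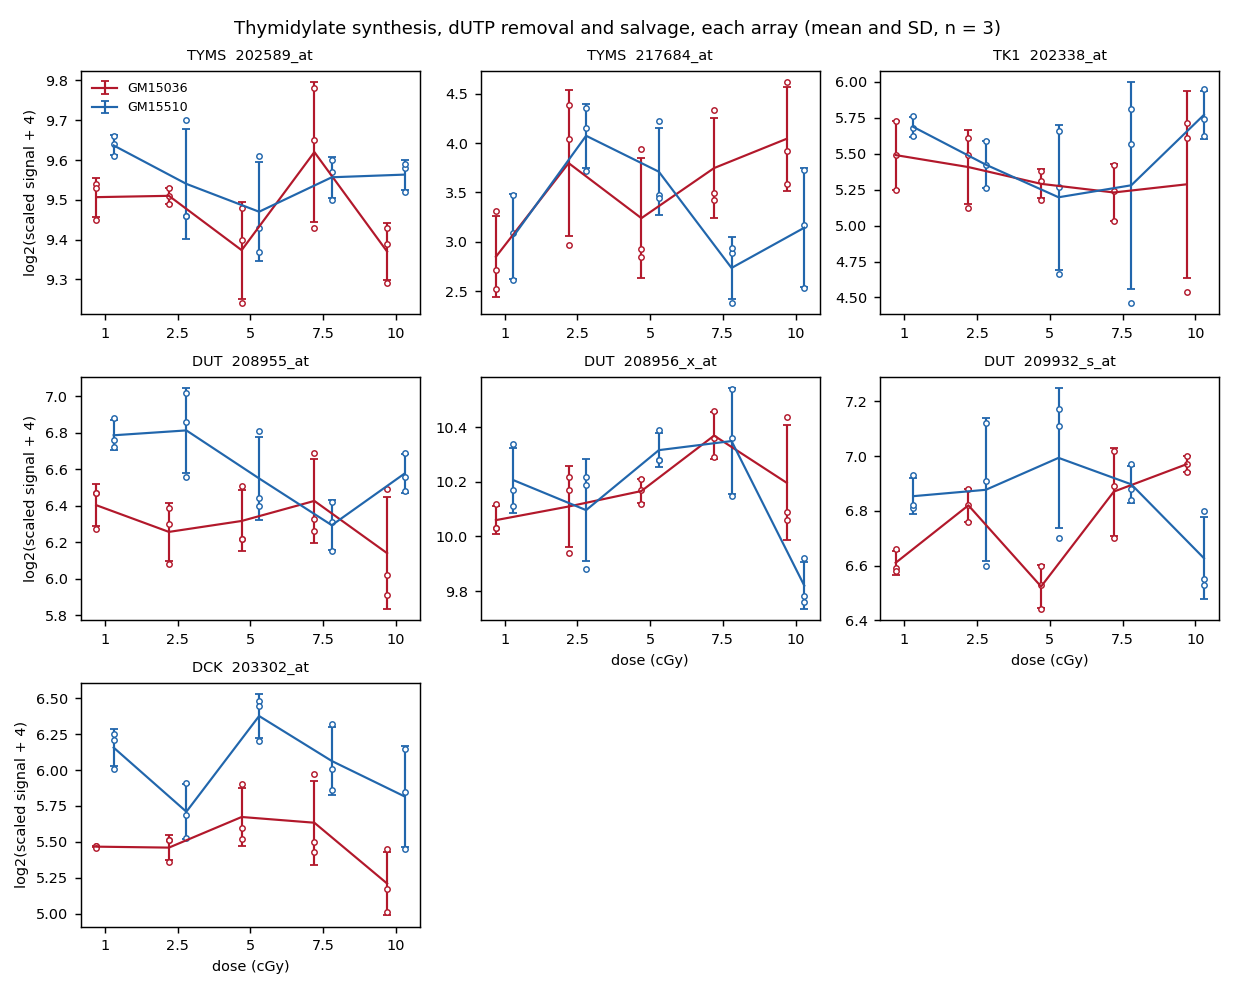
Scaled signal on the log2(signal + 4) scale for the probe sets of TYMS, TK1, DUT and DCK at each dose in cGy, with arrays as points, group means joined and SD bars (n = 3). TYMS 202589_at stays within 9.37 to 9.64 in group means, DUT 208956_x_at is lowest at 10 cGy in GM15510, and DCK lies lower in GM15036 at all doses.

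IMPDH2, the rate-limiting enzyme of guanine nucleotide synthesis (chromosome 3, 49024325 to 49029398), fell at 10 cGy in GM15036 and had a change of the opposite sign, which did not pass, in GM15510. In GM15036 it had 332, 373 and 387 at 10 cGy, against 467, 478 and 456 at 1 cGy, and all 3 arrays at 10 cGy were lower. The change was -0.36 (SE 0.104, limma adjusted p = 0.0195), and the call was lost without replicate b at 1 cGy (0.0722) or a at 10 cGy (0.111). In GM15510 it had 507, 486 and 531 at 10 cGy, against 447, 401 and 442 at 1 cGy. All 3 arrays at 10 cGy were higher there, and the change of 0.24 did not pass (adjusted p = 0.219). The F test passed in GM15036 (0.0266), though not without replicate a or b at 10 cGy (0.0692 to 0.195), and in GM15510 (0.00556). In GM15036 it was kept in 9 of 13 alternatives, and lost with quantile normalization (0.068) and with brightness as a covariate, among others. In GM15510 it was lost only with brightness as a covariate (0.197).

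The IMPDH2 dose pattern differed between the lines with the smallest interaction p of the members (adjusted p = 0.000408), and this was kept in all 12 alternatives that test it and all 30 omissions of an array. The line difference was 0.12, 0.39, 0.11, 0.25 and -0.48 on the log2 scale from 1 to 10 cGy, and averaged 0.08 (adjusted p = 0.168). IMPDH2 was thus higher in GM15036 at 4 doses and lower at 10 cGy. At 10 cGy the arrays of GM15036 were also the dimmest of that line and those of GM15510 the brightest of theirs. With brightness as a covariate the interaction remained called, and the 10 cGy change in GM15036 was -0.31 (adjusted p = 0.346).

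CTPS1, which makes CTP from UTP (chromosome 1, 40979696 to 41012565), showed the same order of signs. In GM15036 it had 147, 160 and 185 at 10 cGy, against 200, 196 and 212 at 1 cGy. The groups did not overlap, and the change was -0.31 (SE 0.102, limma adjusted p = 0.0459). The call was lost without replicate a (0.0843), b (0.0786) or c (0.15) at 1 cGy and without replicate a (0.211) or b (0.115) at 10 cGy. It was also lost without each array of GM15036 at 2.5 and 5 cGy, each array of GM15510 at 1 cGy and replicate 3 of GM15510 at 10 cGy (0.0501 to 0.0538), and in 8 of 13 alternatives. Its F test in GM15036 passed at 0.00884, and not without replicate a at 10 cGy (0.0718), with group means of 7.69, 7.66, 7.89, 7.68 and 7.38 from 1 to 10 cGy, highest at 5 and lowest at 10 cGy. In GM15510 the means stayed within 7.47 to 7.66 (F test adjusted p = 0.545). The interaction was called (0.0112), and had adjusted p values of 0.0507 without replicate 2 of GM15510 at 10 cGy and 0.309 with brightness as a covariate. The line difference of CTPS1 was 0.38 at 5 cGy and -0.28 at 10 cGy, and 0.11 on average (SE 0.046, adjusted p = 0.0534).

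SAMHD1, the dNTP-degrading enzyme (chromosome 20, 36889773 to 36951708), was the member with the largest line difference. Signals ran from 16.5 to 47.7 in GM15036 (median 32.6) and from 46.1 to 74.2 in GM15510 (median 55.4). GM15036 was lower by 0.70, 0.55, 0.76, 1.14 and 0.63 on the log2 scale from 1 to 10 cGy, with no overlap of arrays at any dose. The average difference was -0.76 (SE 0.097, limma adjusted p = 6.64e-08) and was called in every alternative and omission. No dose passed in either line. The lowest mean was at 7.5 cGy in GM15036, with 32.6, 26.0 and 16.5 at 7.5 cGy against 47.7, 24.5 and 38.7 at 1 cGy. Those groups overlapped, and the change was -0.49 (SE 0.217, adjusted p = 0.25).

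**Figure D4:**
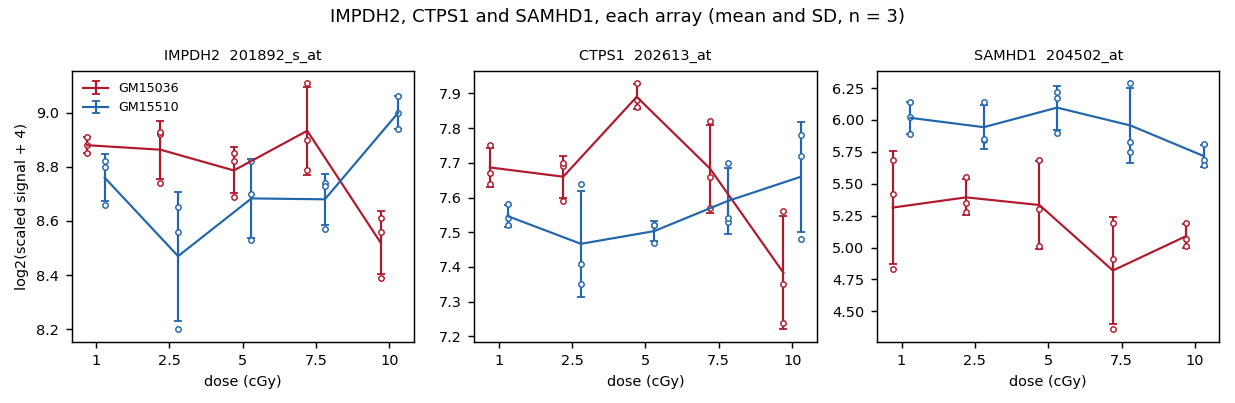
Scaled signal on the log2(signal + 4) scale for IMPDH2, CTPS1 and SAMHD1 at each dose in cGy, with arrays as points, group means joined and SD bars (n = 3). IMPDH2 and CTPS1 lie lower in GM15036 than in GM15510 at 10 cGy in group means and not at the other doses, and SAMHD1 lies lower in GM15036 at all 5 doses.

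Between the lines, 7 of the 13 tested member probe sets were called. Averaged over doses, 1 of 13 probe sets was higher in GM15036 (RRM2 201890_at) and 6 were lower (both of RRM1, RRM2 209773_s_at, DUT 208955_at, DCK and SAMHD1), where 26.7% of all tested probe sets were higher and 20.5% lower. The median was -0.13 for the members and 0.067 for all tested probe sets. RRM1 was lower in GM15036 by 0.53 on 201476_s_at (SE 0.11, limma adjusted p = 0.000134) and by 0.44 on 201477_s_at (SE 0.046, adjusted p = 8.87e-10), with lower means at 5 of 5 doses each and no overlap of arrays at 3 and 4 of them. DUT 208955_at was lower by 0.29 (SE 0.071, adjusted p = 0.000818), and the other DUT probe sets, at 0.02 and -0.09, did not pass (0.719 and 0.207). These 7 calls were kept in all 12 alternatives and all 30 omissions of an array. The F tests of any dose difference were passed by 5 members in GM15036 (16.2% of all tested probe sets) and 6 in GM15510 (21.0%), and the interaction by 5 (20.5%).

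**Figure D5:**
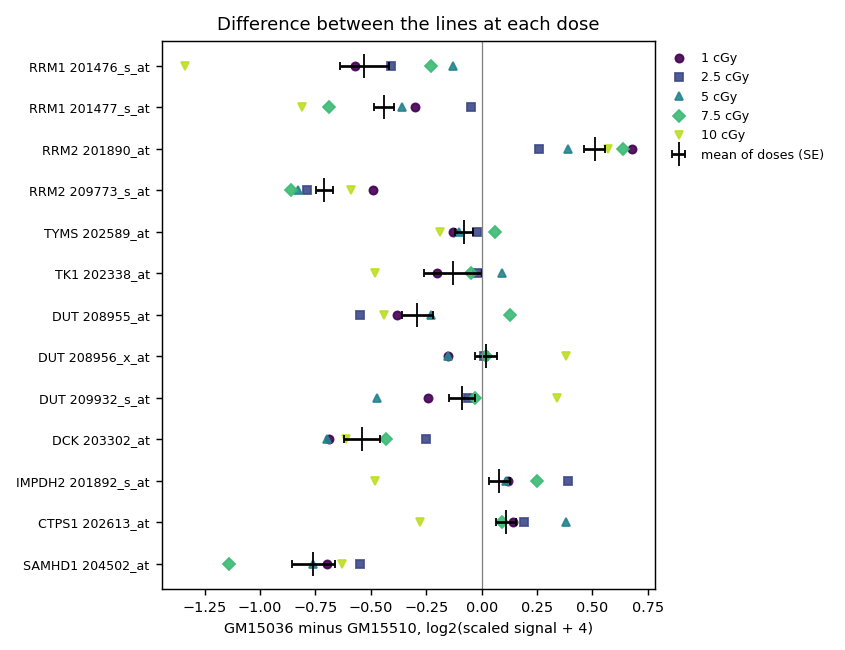
GM15036 minus GM15510 on the log2(signal + 4) scale for each tested member probe set, at each dose (coloured points) and averaged over doses (black mark with SE). The pair of RRM2 probe sets lies on opposite sides of 0 at all 5 doses, SAMHD1 and DCK lie below 0 throughout, and IMPDH2 and CTPS1 cross from above 0 to below it at 10 cGy.

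Other genes of nucleotide metabolism were read from lists of 46 genes, of which 37 had tested probe sets, 57 in all. RRM2B, the p53-induced small subunit of ribonucleotide reductase, was not analysed here, since no probe set carried its symbol alone. At 10 cGy in GM15036, 8 of the 37 genes were lower and 2 higher, and the median change over the 57 probe sets was -0.13. By probe set, 2 of the 57 were called higher and 9 lower, where 4.39% of all tested probe sets were called higher and 7.35% lower. De novo purine synthesis held 4 of the lower genes: ATIC, which closes the purine ring (-0.84, SE 0.143, limma adjusted p = 0.000127), PAICS (-0.80, SE 0.106, 4.45e-06), GMPS, which makes GMP after IMPDH2's step (-0.64, SE 0.108, 0.000113), and ADSL. The first 3 of these kept their calls in all 13 alternatives and all 30 omissions. PAICS passed on 201014_s_at, and its other tested probe set, 201013_s_at, was not called. ADSL passed on 210250_x_at (-0.47) and 202144_s_at (-0.29), and neither passed without replicate b at 1 or 10 cGy, nor, for the second, without replicate a at 1 or 10 cGy (up to 0.119).

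The salvage enzymes ADK (-0.54, adjusted p = 0.00247) and HPRT1 (-0.38, 0.0057) were also lower at 10 cGy in GM15036. Both kept their calls in all 30 omissions, and lost them without the 5 dimmest arrays and with brightness as a covariate. UMPS, of pyrimidine synthesis (-0.42, 0.0293), lost its call without replicate a or b at 1 cGy or any replicate at 10 cGy (0.0525 to 0.148). MTHFD1, of folate metabolism (-0.38, 0.0255), lost its call without replicate b at 1 cGy or b or c at 10 cGy (up to 0.185). The higher genes were the kinase GUK1 (0.50, adjusted p = 0.033) and DCTPP1, which hydrolyses dCTP and its modified forms (0.80, 0.0081). GUK1, which was -0.06 under median centring of unscaled arrays, lost its call without replicate a or c at 1 cGy or a or c at 10 cGy (up to 0.134), and DCTPP1 without b or c at 1 cGy (up to 0.0933). The calls of ADK, UMPS and GUK1 were on 204119_s_at, 215165_x_at and 200075_s_at. Their other tested probe sets were not called: ADK 204120_s_at, UMPS 202706_s_at and 202707_at, and GUK1 213621_s_at. Replication genes, 22 with 35 probe sets, included 7 lower and 0 higher genes in this comparison, with a median of -0.21. By probe set, 8 of the 35 were called lower, where 7.35% of all tested probe sets were. RFC2 1053_at and RFC5 203209_at were among these, and RFC2 203696_s_at and RFC5 213734_at were not. RFC3 204127_at (-0.82, adjusted p = 2.37e-07), of the clamp loader, and MCM6 (-0.66, 9.79e-06), of the replicative helicase, passed in every alternative and omission. The other 6 called replication probe sets, of GINS3, RFC3 (204128_s_at), RFC2, RFC4, RFC5 and MCM2, lost their calls with brightness as a covariate (adjusted p 0.131 to 0.506). GINS3, of the helicase complex, was -1.27, against -0.42 without the 5 dimmest arrays and -0.71 (0.106) without replicate b at 10 cGy, and RFC3 204128_s_at was -1.25, against -0.76 (0.0812) without replicate b at 10 cGy. RFC2 lost its call without replicate c at 10 cGy (0.0504), and MCM2 without replicate a or b at 1 cGy or a or c at 10 cGy (0.0546 to 0.195). Of the 57 probe sets of nucleotide metabolism, 2 were called higher and 9 lower, against 1 and 4 without the 5 dimmest arrays, 0 and 3 with brightness as a covariate, 0 and 18 with centring after scaling and 0 and 30 with median centring of unscaled arrays. By list, the genes called were 0 higher and 4 lower in purine synthesis, 0 and 2 in salvage, 0 and 1 in folate supply, 1 and 1 in pyrimidine synthesis and kinases, and 1 and 0 in turnover and pool control. Under median centring of unscaled arrays the calls over all tested probe sets shifted to lower as well, as given above.

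At lower doses of GM15036 limma called 0 of the 57 probe sets at 2.5 and 5 cGy and 1 at 7.5 cGy, DCTPP1 (0.86, adjusted p = 0.0135; lost without replicate b or c at 1 cGy or b at 7.5 cGy, up to 0.133). In GM15510, 3 of the 57 probe sets were higher and 3 lower at 2.5 cGy, where 3.92% and 5.57% of all tested were. At 5 cGy 2 were higher and 1 lower (2.08% and 2.12% of all). At 7.5 cGy 0 were higher and 2 lower, where 1.79% of all were called in either direction. At 10 cGy 3 were higher and 3 lower (3.09% and 2.82% of all). The kinase NME1 was higher at 2.5 cGy (0.88, adjusted p = 1.09e-06) and 10 cGy (1.02, 6.84e-08), in all 30 omissions of an array. At 5 cGy NME1 was higher too (0.41, adjusted p = 0.0198). That call was lost without replicate 1 or 2 at 1 cGy or 3 at 5 cGy (up to 0.122). PRPS1, which makes the ribose donor of purine synthesis, was higher at 2.5 cGy (0.67, 0.000296) and 10 cGy (0.54, 0.00311). Both PRPS1 calls were on 209440_at, and its other tested probe set, 208447_s_at, was not called. HPRT1 (-0.65, 1.65e-05) and PAICS (-0.58, 0.000452) were lower at 10 cGy, and these calls and those of PRPS1 were kept in all 30 omissions. PAICS was also lower at 2.5 cGy (-0.37, adjusted p = 0.022). That call was lost without replicate 2 or 3 at 1 cGy or 2 at 2.5 cGy (up to 0.106). Both PAICS calls were on 201014_s_at and not on 201013_s_at. Of the median-centred values of unscaled arrays at 2.5 cGy, that of NME1 was 0.17 (adjusted p = 0.474) and that of PRPS1 -0.08 (0.754). At 10 cGy the same centring kept the call of NME1 and lost those of HPRT1 (0.0898), PAICS (0.157) and PRPS1 (0.0935). Between the lines, 12 of the 37 genes had a probe set higher in GM15036 and 13 had one lower. By probe set, 14 of the 57 were higher and 15 lower, where 26.7% of all tested probe sets were higher and 20.5% lower. Of the 35 replication probe sets, 0 were higher and 2 lower at 7.5 cGy in GM15036, where 3.22% of all were called. In GM15510, 1 was higher and 2 lower at 2.5 cGy, and 1 higher and 1 lower at both 5 and 10 cGy. At 7.5 cGy in GM15510, 0 were called. The shares of all tested probe sets in GM15510 are those given above.

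The probe sets with the pattern most like each member over the 10 group means, each centred on its line's mean, are given as a description with no test, since the points share their arrays and scaling. They were picked for the highest r among the tested probe sets of other genes, so their r values are high by selection. For RRM1 201477_s_at they were PSMC2 and SART3 (r = 0.96 each) and NQO1 (0.95). For RRM1 201476_s_at they were PRIM2 and KIFBP (0.96 each) and G3BP1 (0.95). RRM2 201890_at was most like RPL3 (0.97), MYBBP1A (0.96) and RPS4X (0.95), and 209773_s_at like CSE1L (0.96), RPS6KA5 (0.93) and TM2D1 (0.92). The pair of RRM2 probe sets correlated with each other at r = 0.04 over the same 10 means. IMPDH2 was most like TRRAP (0.95), AP2M1 and CUEDC2 (0.94 each), and CTPS1 like PGK1 (0.97), CLTC (0.95) and VIM (0.94). TYMS was closest to KMO (0.99), TK1 to CDC42SE1 (0.97), DCK to VGLL4 (0.93) and SAMHD1 to NUP205 and CD80 (0.92 each). DUT 208955_at was closest to CCT2 (0.94), 208956_x_at to C2CD5 (0.93) and 209932_s_at to CALML4 (0.95). With log2 brightness over the same 10 means, RRM1 201477_s_at had r = 0.82, IMPDH2 0.79, CTPS1 0.68, DUT 209932_s_at -0.66 and RRM2 201890_at -0.76. Of the other member probe sets called lower at 10 cGy in GM15036, RRM2 209773_s_at had r = -0.09 and RRM1 201476_s_at 0.35.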

How the data were processed

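The authors deposited linear signal intensities, made with MAS5 per the submitters' processing notes. The MAS5 version, scaling target and background settings are not given in the sources used here. Total RNA was isolated with Qiagen reagents and biotin-labelled for Affymetrix arrays, per the labels' protocols, and amplified with an Arcturus T7 kit, per the design text. Of 22283 probe sets, 19071 carried 1 symbol, 1043 several and 2169 none; 19059 symbols were matched by gene ID to RefSeq (GRCh38.p14).

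All arrays were brought to 1 trimmed mean (2 to 98 percent), 50.9, their average. A pseudocount of 4 was added before log2, which understates changes of dim probe sets. The dimmest 40 percent of probe sets by mean value and 68 controls were left out, which left 13331. limma 3.58.1 in R 4.3.3 (lmFit, eBayes with a trend, two-sided) was fitted to the 10 groups of all 30 arrays (20 residual degrees of freedom), with Benjamini-Hochberg adjustment over 13331 and a threshold of 0.05. It was tested on simulated data. The members, lists, rules and alternatives were chosen with earlier results of these data known. All members are named. The rule for the lists was up to 4 passing genes per list and comparison. Not all of these are printed, and at 10 cGy in GM15036 all called replication genes are named. Alternatives were quantile normalization, median centring of unscaled or scaled arrays, pseudocounts of 1 and 16, no filter and one of 60 percent, no trend, array weights, each line alone, without the 5 dimmest arrays, without each array, the replicate label as a block and log2 brightness as a covariate.

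Replicate labels did not pair arrays: deviations from the group means of same-labelled arrays correlated at -0.0552 to 0.0409 in GM15036 and -0.0616 to 0.097 in GM15510. No pair of arrays was identical, and arrays of a group correlated at 0.901 to 0.972. The number of arrays limits the precision.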

Additional observations from a re-analysis of the deposited data

Results flagged for a closer look

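The dose pattern differed between GM15036 and GM15510 by limma's interaction F test, with Benjamini-Hochberg adjustment, for 5 of the 13 tested member probe sets, where 20.5% of all tested probe sets passed. The adjusted p was 0.000408 for IMPDH2, 0.000965 for RRM1 201477_s_at, 0.0112 for CTPS1, 0.0144 for DUT 209932_s_at and 0.0436 for DUT 208956_x_at. At 10 cGy against 1 cGy the changes were -0.36 in GM15036 and 0.24 in GM15510 for IMPDH2, -0.37 and 0.14 for RRM1 201477_s_at, -0.31 and 0.12 for CTPS1, 0.35 and -0.23 for DUT 209932_s_at, and 0.14 and -0.39 for DUT 208956_x_at. The mean array brightness at 10 cGy was 22.1 ± 10.4 in GM15036 and 89.1 ± 23.6 in GM15510 (SD, n = 3 each), and with log2 brightness as a covariate only the interaction of IMPDH2 passed.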

How the results depend on the processing

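Counts are of the 13 member probe sets called. Calls over all tested probe sets also changed with the setting, as given above for median centring of unscaled arrays. Their shares are not printed beside the counts here, which therefore describe the processing and not the members. Median centring of unscaled arrays gave 11 calls at 10 cGy in GM15036, 11, 5 and 0 at 2.5, 5 and 10 cGy in GM15510, 9 and 11 in the F tests of GM15036 and GM15510 and 12 in the interaction. Under it these changes turned sign: RRM2 201890_at to -0.54, DUT 208956_x_at to -0.52 and GUK1 to -0.06 (10 cGy, GM15036); RRM2 201890_at to -0.19, 209773_s_at to -0.65, DUT 208955_at to -0.65, 209932_s_at to -0.66, PRPS1 to -0.08 and ADSL to -0.45 (2.5 cGy, GM15510); and RRM2 209773_s_at to -0.04 (5 cGy, GM15510). Centring after scaling gave 6, 0 and 0 calls at 2.5, 5 and 10 cGy in GM15510, and quantile normalization 0 at 5 and 2 at 10 cGy. Without a trend there were 2 at 10 cGy and 3 in the F test in GM15036 and 0 at 10 cGy in GM15510. Array weights gave 2 at 7.5 and 2 at 10 cGy in GM15510. Without the 5 dimmest arrays there were 2 at 10 cGy and 3 in the F test in GM15036, 2 at 7.5 cGy in GM15510 and 1 in the interaction; this leaves 1 array each at 10 cGy in GM15036 and 2.5 cGy in GM15510, assumed to vary like the other groups. With brightness as a covariate there were 1 at 10 cGy and 1 in the F test in GM15036, 0, 0 and 2 at 2.5, 5 and 10 cGy and 3 in the F test in GM15510, and 1 in the interaction. The causes were not tested. With the replicate label as a block, 4 were called at 10 cGy in GM15036 and 5 in the F test of GM15510, CTPS1 (10 cGy, GM15036; adjusted p = 0.0579) and RRM1 201477_s_at (F test, GM15510; 0.0631) being lost among the members; no other member call changed, and 6 of 15 arrays in each line correlated best with an array of their own label. Leaving out 1 array at a time gave 1 to 6 calls at 10 cGy in GM15036, 1 to 2, 0 to 2 and 0 to 1 at 2.5, 5 and 10 cGy in GM15510, 2 to 6 and 4 to 7 in the F tests of GM15036 and GM15510, 3 to 6 in the interaction, 7 to 8 between the lines and 0 in the other 4 comparisons. The count in GM15510 was 0 at 10 cGy without replicate 1 at 1 cGy or 2 or 3 at 10 cGy. At 5 cGy it was 2 without replicate 2 at 1 cGy or 3 at 5 cGy and 0 without 3 at 1 cGy, and at 2.5 cGy it was 2 without replicate 3. The F test count in GM15036 was 2 and 3 without replicate a or b at 10 cGy, and the interaction count 3 without replicate 2 of GM15510 at 10 cGy. Pseudocounts of 1 or 16, no filter, the filter of 60 percent and each line alone moved no member count by over 1.5 times.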
